A study of Mus musculus with 24 samples.

Results

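The genes described here encode calcineurin, the NFAT transcription factors it activates and the RCAN proteins that bind it, in mouse C2C12 myotubes exposed to low O2 and electrical stimulation. They were chosen by name, as the rows of 10 gene symbols matched to Ensembl identifiers of the GRCm38 annotation: Ppp3ca, Ppp3cb and Ppp3r1 for calcineurin, Nfatc1, Nfatc2, Nfatc3 and Nfatc4 for NFAT, and Rcan1, Rcan2 and Rcan3 for RCAN. All 10 were among the 14541 genes tested, of 55487 genes listed. C2C12 is a mouse myoblast line whose cells fuse into contracting myotubes when serum is lowered, and the labels give its genotype as WT. All cultures were differentiated at 5% O2, were labelled day 5 and then spent 2 h at either 5% or 1% O2. The 4 groups of 6 libraries were 5% CTRL (5% O2, not stimulated), 1% CTRL (1% O2, not stimulated), 5% STIM (5% O2, electrically stimulated) and 1% STIM (1% O2, electrically stimulated), all from 1 cell line. Stimulation was given as repeated high-frequency bouts to cells in wells, with the medium changed before and after it. Per the study's methods the bouts came after the 2 h at 5% or 1% O2. Stimulated cultures may thus have spent longer at their O2 level, which cannot be told apart from the stimulation. Cells were harvested on leaving the incubator. The study describes the stimulated RNA samples as taken immediately after stimulation, so later responses were not sampled.

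Calcineurin is a phosphatase that is switched on when calcium loads calmodulin. Its catalytic A subunits and its calcium-binding B subunit act as a pair. It strips phosphates from NFAT proteins, which then enter the nucleus and bind DNA at a core of GGAAA, often beside AP-1 factors. RCAN proteins bind calcineurin and restrain it, and a short form of Rcan1 is made from a start site inside the gene that NFAT itself activates, which is why Rcan1 RNA is used as a readout of calcium signalling. In skeletal muscle this pathway is best known for linking nerve activity to the slow fibre programme and for its part in myoblast fusion.

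The 250 bases before the start sites of Rcan1 are shown because a gene-level count adds up both forms of its RNA. The sequences are RefSeq start-site windows of GRCm38.p6 on the minus strand, and capitals mark the NFAT core, GGAAA or its complement TTTCC. The window before the far start site, at chr16:92466170-92466419, held no NFAT core and 1 site with ACGTG, the core of the hypoxia response element, within the palindrome CACGTG, which reads the same on both strands and was counted as 1 site. The window before the inner start site, at chr16:92400079-92400328, held 3 NFAT cores, and the letters TGANTCA of AP-1 occurred 1 time. The window of Nfatc4, on the plus strand at chr14:55824545-55824794, is shown beside them as that of an NFAT gene which also held 3 cores.
Rcan1, far start: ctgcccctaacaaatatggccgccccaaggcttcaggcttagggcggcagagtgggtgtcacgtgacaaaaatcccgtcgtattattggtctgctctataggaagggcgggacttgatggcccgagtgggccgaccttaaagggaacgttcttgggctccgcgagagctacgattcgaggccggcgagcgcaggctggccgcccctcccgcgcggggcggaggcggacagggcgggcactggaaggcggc
Rcan1, inner start: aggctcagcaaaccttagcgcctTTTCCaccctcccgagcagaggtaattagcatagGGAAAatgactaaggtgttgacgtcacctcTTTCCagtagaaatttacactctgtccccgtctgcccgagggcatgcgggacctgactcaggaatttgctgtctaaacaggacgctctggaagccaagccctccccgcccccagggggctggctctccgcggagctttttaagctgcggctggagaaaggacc
Nfatc4: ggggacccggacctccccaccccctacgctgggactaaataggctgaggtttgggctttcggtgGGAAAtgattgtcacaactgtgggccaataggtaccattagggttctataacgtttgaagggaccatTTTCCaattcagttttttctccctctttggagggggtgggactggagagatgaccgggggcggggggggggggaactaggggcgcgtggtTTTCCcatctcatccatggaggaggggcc
Of 32851 windows of the same length, searched on both strands, 55.6% held at least 1 NFAT core, 6.39% at least 3, 6.75% an AP-1 match and 16.6% at least 1 site with ACGTG. Among the other windows of these genes, Ppp3cb and one of the windows of Nfatc2 also held 3 NFAT cores, and one of the windows of Rcan2 held 2. No window is shown for Nfatc1 or Ppp3ca. A match describes the letters and is not a measured binding site.

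Expression is given as the normalized count, the reads of a gene divided by the size factor of its library. The reads assigned to genes, as recovered from the deposited values, numbered between 26541858 and 28173745 per library. A gene was called when its Benjamini-Hochberg adjusted p from limma, fitted on log2(normalized count + 1) over all 24 libraries and all 14541 tested genes, was under 0.05, and fold changes are on that scale. The study's methods describe 6 biological replicates per condition, but neither they nor the labels say how separate the cultures were, so the p-values measure only the spread between these samples, which may be in part technical. Over all tested genes 1% CTRL replicate 1 stood slightly apart, with a median correlation of 0.985 with the libraries of its own group against 0.991 for the other 5, and results that change without it are given with their values. The 9 myotube markers, among them Ckm, Acta1 and Myh3, summed to 388488 to 491117 normalized counts in every library and none was at 0 throughout. Markers of adipocytes summed to at most 6.29, of endothelial cells to at most 25.7, of leukocytes to at most 70.5 and of osteoblasts to at most 131.

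At rest, 1% O2 changed most of these genes. Between 1% CTRL and 5% CTRL, 2 of the 10 were higher, 7 were lower and 1, Rcan1, was not called. Over all tested genes 29.4% were higher and 30.5% lower, so calls in this comparison were common. The median log2 difference of the 10 was -0.19, against 0.00 for all tested genes. In the same comparison 6 of the 9 myotube markers were lower and none higher (3 and 2 when libraries were rescaled to the same total), and 4 of 6 markers of cycling or undifferentiated myoblasts were higher and 1 lower. Those myoblast markers summed to between 3410 and 3883 in 5% CTRL and between 4037 and 6167 in 1% CTRL. The part of these markers in the values below was not tested, and in bulk RNA fewer cells of a type cannot be told apart from less RNA per cell.

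Between 5% STIM and 5% CTRL, 2 of the 10 were higher and none was lower, where 9.44% of all tested genes were higher and 12% lower. The 2 were Nfatc1 and Ppp3ca, and 0 of the other 8 reached an unadjusted p under 0.05. Between 1% STIM and 1% CTRL, 5 of the 10 were higher and none lower, where 11.5% of all tested genes were higher and 10.8% lower. The 5 were Nfatc1, Nfatc2, Nfatc3, Ppp3ca and Rcan2, and 0 of the other 5 reached an unadjusted p under 0.05. edgeR and DESeq2 gave the same counts in both comparisons, with 0 lower. The median log2 difference of the 10 was 0.04 with stimulation at 5% O2 and 0.12 at 1% O2, against -0.01 and -0.00 over all tested genes. Of the myotube markers 3 were lower with stimulation at 5% O2 and 2 at 1% O2, and of the myoblast markers 3 and 1 were higher and 1 and 1 lower. The myoblast markers summed to 3837 to 4463 in 5% STIM and to 4257 to 5248 in 1% STIM.

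Between 1% STIM and 5% STIM, 2 of the 10 were higher and 5 lower, where 29% of all tested genes were higher and 28.4% lower. When libraries were rescaled to the same total, the split was 3 higher and 3 lower. In this comparison too, 6 of the 9 myotube markers were lower and none higher (2 and 1 when rescaled), and 3 of the 6 myoblast markers were higher and 1 lower, and their part in these values was not tested. The test of whether stimulation acted differently at the 2 O2 levels, the interaction of O2 and stimulation, called 1 of the 10, Nfatc1, as lower, where 5.88% of all tested genes were higher and 5.43% lower. An unadjusted p under 0.05 was reached by 4 of the 10 in this test. Without 1% CTRL replicate 1, Rcan2 (adjusted p = 0.0408) and Ppp3cb (adjusted p = 0.0314) were called as well by limma, both as higher.

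**Figure D1:**
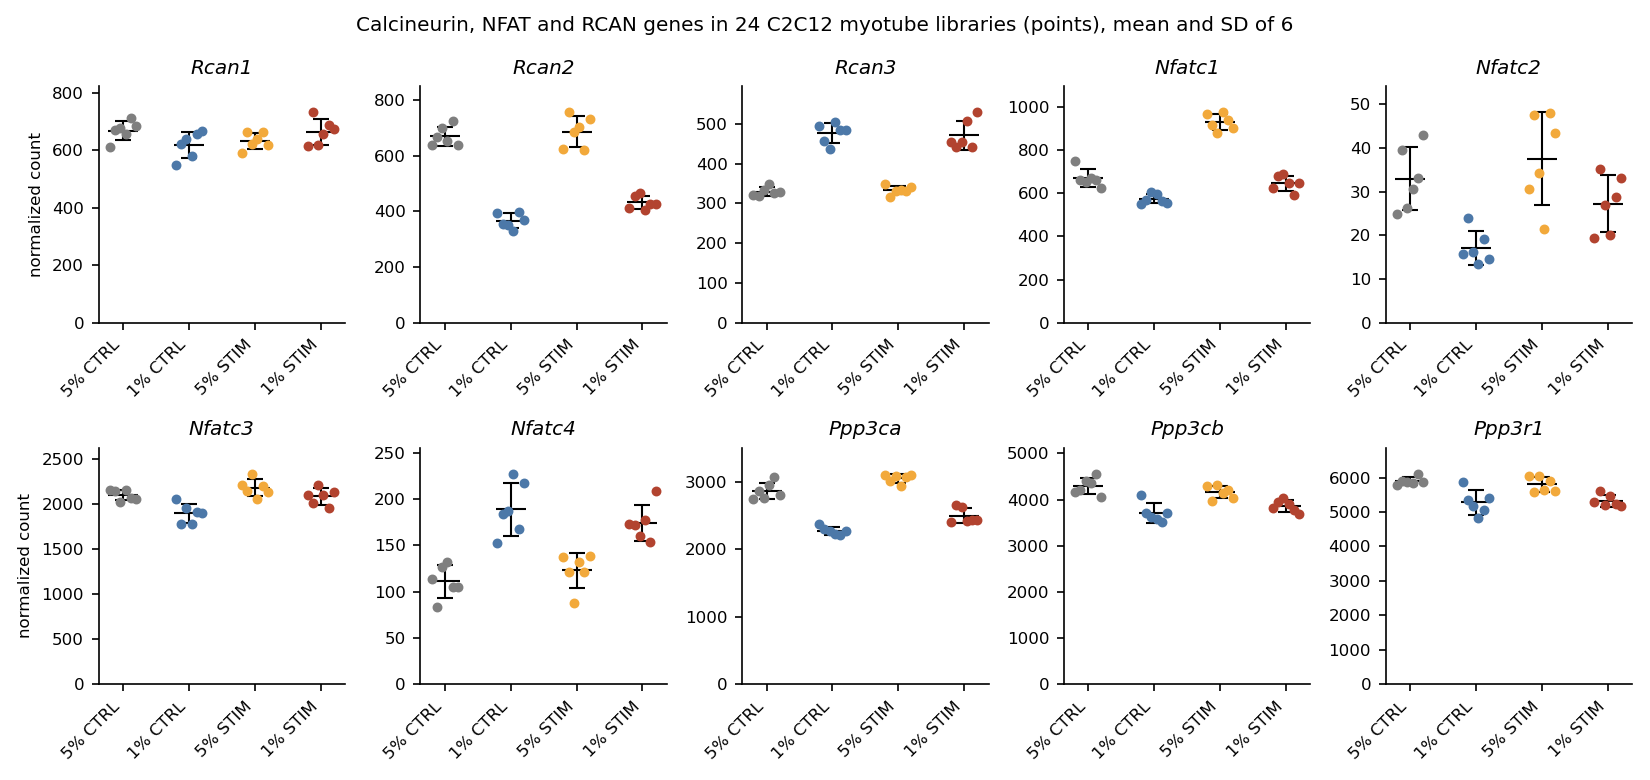
Normalized counts (vertical axis, from 0) of the 10 genes in the 24 libraries, 1 panel per gene, by group on the horizontal axis; points are libraries, and the black mark and bar are the mean and SD of 6. Nfatc1 sits at 879 to 976 in 5% STIM, above every other library, whereas the 4 groups of Rcan1 overlap between 550 and 732.

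Calcineurin subunits held the most RNA per kb of exon of the 10 genes in 5% CTRL, and all 3 were lower at 1% O2. Ppp3ca (ENSMUSG00000028161, chr3:136670124-136937727, plus strand) encodes the alpha form of the catalytic subunit. Its lowest, median and highest normalized counts were 2734, 2832 and 3063 in 5% CTRL. In 1% CTRL they were 2201, 2270 and 2374, so the 2 groups did not overlap. In 5% STIM they were 2931, 3078 and 3100, and in 1% STIM they were 2398, 2433 and 2654. Each 1% group lay below each 5% group in every library. Ppp3ca fell by 0.33 on the log2 scale from 5% CTRL to 1% CTRL (SE 0.03, limma adjusted p = 6.06e-11), and was lower by 1.22-fold in 1% STIM than in 5% STIM (adjusted p = 1.24e-09). Its rises with stimulation were small, 1.07-fold at 5% O2 (adjusted p = 0.033) and 1.10-fold at 1% O2 (adjusted p = 0.002). All 4 group means of Ppp3ca differed from their neighbours in order, from 1% CTRL through 1% STIM and 5% CTRL to 5% STIM. The call at 5% O2 was lost when any of 8 libraries was left out, namely 5% CTRL replicates 1, 2, 3 and 6 and 5% STIM replicates 1, 3, 5 and 6, with adjusted p between 0.0516 and 0.0859, and also when no filter on low counts was used (adjusted p = 0.0678).

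Ppp3cb (ENSMUSG00000021816, chr14:20499364-20546573, minus strand), the beta form of the catalytic subunit, ran from 4057 to 4557 (median 4280) in 5% CTRL. In 1% CTRL it ran from 3519 to 4106 (median 3667), and 1 library of that group, replicate 1, reached into the range of the controls. In 5% STIM it ran from 3973 to 4310 (median 4182), and in 1% STIM from 3685 to 4033 (median 3857). The stimulated groups also overlapped. It was lower in 1% CTRL than in 5% CTRL by 1.16-fold (log2 difference -0.21, SE 0.03, limma adjusted p = 2.19e-06) and in 1% STIM than in 5% STIM by 1.08-fold (adjusted p = 0.0066). Stimulation gave log2 differences of -0.04 at 5% O2 (adjusted p = 0.397) and 0.06 at 1% O2 (adjusted p = 0.249), and the second was called without 1% CTRL replicate 1 (log2 difference 0.09, adjusted p = 0.0339).

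Ppp3r1 (ENSMUSG00000033953, chr11:17159263-17200375, plus strand) encodes the calcium-binding B subunit. It ran from 5775 to 6111 (median 5865) in 5% CTRL and from 4837 to 5886 (median 5260) in 1% CTRL. In 5% STIM it ran from 5573 to 6053 (median 5768), and in 1% STIM from 5187 to 5599 (median 5260). The 1% groups were lower as groups and touched the 5% groups at their upper ends. The log2 differences were -0.16 at rest (limma adjusted p = 0.0002) and -0.12 with stimulation (adjusted p = 0.0028), and those for stimulation were -0.02 at 5% O2 and 0.01 at 1% O2, neither called. Of the exon bases of Ppp3r1, 14.3% are shared with Wdr92 on the same strand, so reads from that stretch cannot be assigned with certainty. When libraries were rescaled to the same total, the lower levels in 1% STIM than in 5% STIM were no longer called for Ppp3cb (log2 difference -0.04, adjusted p = 0.326) or Ppp3r1 (-0.05, adjusted p = 0.198).

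Among the catalytic genes, Ppp3cb gave the highest normalized count per kb of exon, 487 ± 20.5 in 5% CTRL against 286 ± 12.5 for Ppp3ca (SD, n = 6). A catalytic gene that was not among the 10, Ppp3cc, went the other way at low O2, with 1.16-fold higher RNA in 1% CTRL than in 5% CTRL (limma adjusted p = 0.0017) and 1.22-fold higher in 1% STIM than in 5% STIM (adjusted p = 7.12e-05). Its share of the catalytic RNA per kb of exon was 15.1% ± 1.05 in 5% CTRL and 19.7% ± 1.00 in 1% CTRL (SD, n = 6), and the ranges of the 2 groups, 14.1 to 16.7% and 18.8 to 21.4%, did not overlap. The share of Ppp3ca was 31.5% ± 0.53 and 28.2% ± 0.61 in the same groups. With the median length of coding transcripts in place of exon length, the share of Ppp3cc was 9.02% and 12.1%.

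Among the NFAT genes, Nfatc1 was the one called as higher with stimulation at both O2 levels, and the rise was larger at 5% O2. Nfatc1 (ENSMUSG00000033016, chr18:80606205-80713071, minus strand) encodes the NFAT that is itself induced in an autoregulatory loop in lymphocytes and that is linked to the slow programme in muscle. Its lowest, median and highest normalized counts were 626, 663 and 752 in 5% CTRL and 879, 929 and 976 in 5% STIM. In 1% CTRL they were 553, 568 and 608, and in 1% STIM they were 591, 647 and 688. Every 5% STIM library lay above all 18 libraries of the other groups, whereas 1% STIM overlapped both unstimulated groups. Stimulation raised Nfatc1 by 1.39-fold at 5% O2 (log2 difference 0.47, SE 0.04, limma adjusted p = 4.23e-10) and by less at 1% O2 (0.17, SE 0.04, adjusted p = 0.0056). The difference between these responses was -0.30 on the log2 scale (SE 0.06, 95% interval -0.43 to -0.18, adjusted p = 0.0012). Low O2 lowered it by 1.17-fold at rest (adjusted p = 7.00e-05) and by 1.44-fold in stimulated cells (adjusted p = 4.34e-12). The mean in 1% STIM, 647 ± 36.3, did not differ from that in 5% CTRL, 671 ± 42.5, by the same test (SD, n = 6, limma adjusted p = 0.313), and the 95% interval of that log2 difference ran from -0.15 to 0.04.

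Nfatc2 (ENSMUSG00000027544, chr2:168476410-168601657, minus strand) encodes an NFAT that in myotubes is known for recruiting myoblasts to fuse. It was low, with 14 to 47 reads per library, so that its values carry the widest error of the 10. The lowest, median and highest normalized counts were 24.9, 32.0 and 42.9 in 5% CTRL and 13.4, 16.0 and 23.98 in 1% CTRL. They were 21.5, 38.8 and 48.1 in 5% STIM and 19.5, 27.9 and 35.3 in 1% STIM. The 5% CTRL and 1% CTRL libraries did not overlap, and within each O2 level the stimulated and unstimulated libraries did. At rest it was 1.86-fold lower at 1% O2 (log2 difference -0.90, SE 0.20, limma adjusted p = 0.0002). Stimulation raised it 1.55-fold at 1% O2 (log2 difference 0.63, SE 0.20, adjusted p = 0.019), a call lost without 1% CTRL replicate 4 (adjusted p = 0.0504) or 1% STIM replicate 2 (adjusted p = 0.0562). At 5% O2 the log2 difference was 0.16 with a 95% interval of -0.24 to 0.56 (adjusted p = 0.626). Between 1% STIM and 5% STIM it was -0.43 (adjusted p = 0.0638), which was called without 1% STIM replicate 2 (adjusted p = 0.0363), 1% STIM replicate 6 (0.045) or 5% STIM replicate 4 (0.0116), by edgeR on whole reads (adjusted p = 0.0454) and with a pseudocount of 10 (adjusted p = 0.0483).

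Nfatc3 (ENSMUSG00000031902, chr8:106058840-106130537, plus strand), a broadly expressed NFAT, had the most RNA per kb of exon of the 4. It ran from 2026 to 2163 (median 2107) in 5% CTRL and from 1782 to 2063 (median 1905) in 1% CTRL. It ran from 2060 to 2338 (median 2177) in 5% STIM and from 1954 to 2213 (median 2102) in 1% STIM. All groups overlapped. At rest it was 1.11-fold lower at 1% O2 (log2 difference -0.15, SE 0.04, limma adjusted p = 0.0007), a call lost when libraries were rescaled to the same total (-0.07, adjusted p = 0.0997), and stimulation raised it 1.10-fold at 1% O2 (adjusted p = 0.0053). Its log2 differences for stimulation at 5% O2, 0.05, and between the stimulated groups, -0.07, were not called (limma adjusted p = 0.325 and 0.127). Of the exon bases of Nfatc3, 1.87% are shared with Esrp2 on the opposite strand, and the counting did not use strand.

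Nfatc4 (ENSMUSG00000023411, chr14:55823144-55833943, plus strand), an NFAT known from heart muscle and neurons, was the one NFAT gene with more RNA at low O2. Its lowest, median and highest normalized counts were 83.4, 109 and 132 in 5% CTRL and 152, 185 and 227 in 1% CTRL. They were 87.8, 127 and 138 in 5% STIM and 154, 172 and 209 in 1% STIM. Every library at 1% O2 lay above every library at 5% O2. It was 1.70-fold higher in 1% CTRL than in 5% CTRL (log2 difference 0.77, SE 0.11, limma adjusted p = 4.45e-07) and 1.42-fold higher in 1% STIM than in 5% STIM (0.51, SE 0.11, adjusted p = 0.0002). Stimulation gave 0.15 at 5% O2 and -0.11 at 1% O2 (adjusted p = 0.398 and 0.549).

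These changes altered the make-up of the NFAT RNA. Per kb of exon, Nfatc3 held 61.6% ± 1.08 of the RNA of the 4 genes in 5% CTRL, Nfatc1 30.8% ± 1.06, Nfatc4 6.55% ± 1.00 and Nfatc2 1.07% ± 0.26 (SD, n = 6). In 5% STIM the share of Nfatc1 was 37.1% ± 1.42, and its range over libraries, 35.1 to 39.5%, lay above the range of 29.8 to 32.8% in 5% CTRL. In 1% STIM it was 29.1% ± 0.98. The share of Nfatc4 was 11.9% ± 1.83 in 1% CTRL and 10.1% ± 0.93 in 1% STIM. The order of the 4 genes was the same per kb of coding transcript, where the share of Nfatc1 was 19.1% in 5% CTRL and 23.8% in 5% STIM. Shares within a family are descriptions and were not tested.

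**Figure D2:**
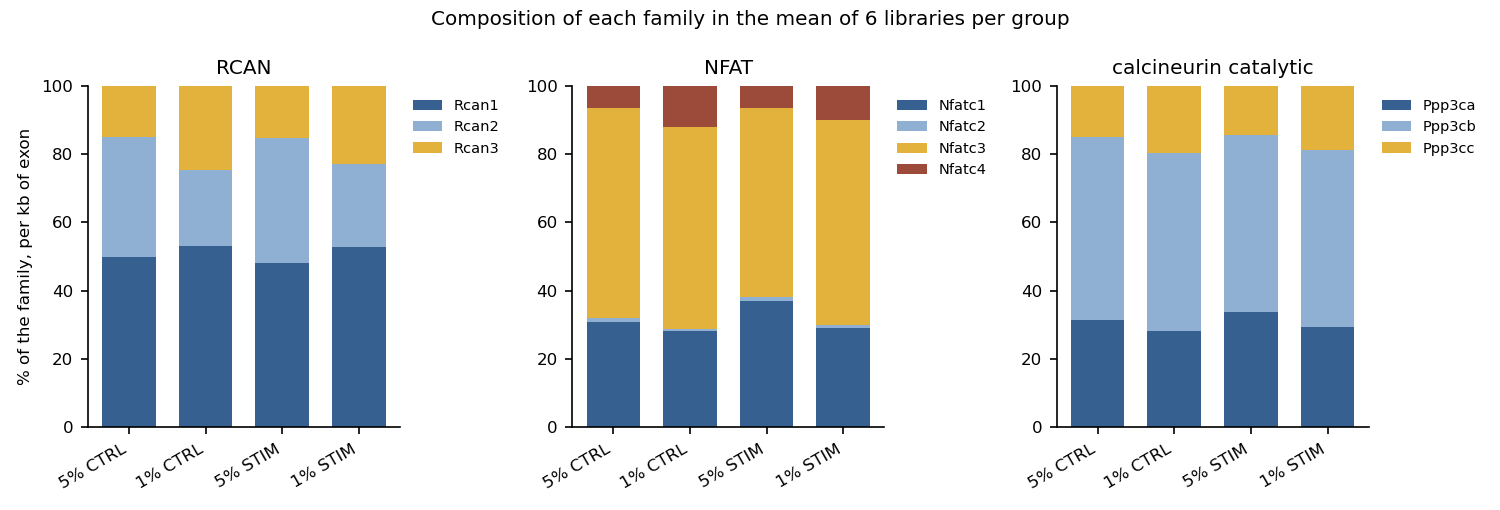
Share of each gene in the RNA of its family (vertical axis, %, per kb of exon, mean of 6 libraries) in the 4 groups, for RCAN, NFAT and the catalytic subunits of calcineurin. Nfatc1 widens to 37.1% of NFAT in 5% STIM, and Rcan2 narrows from 35.3% to 22.2% of RCAN between 5% CTRL and 1% CTRL.

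Rcan1, the readout of calcium signalling, was not called in any of the 5 comparisons by limma over the 4 groups of libraries. Rcan1 (ENSMUSG00000022951, chr16:92391953-92470867, minus strand) ran from 611 to 710 (median 675) in 5% CTRL and from 590 to 664 (median 630) in 5% STIM. It ran from 550 to 667 in 1% CTRL (median 630) and from 615 to 732 in 1% STIM (median 665). All 4 groups overlapped, and no 2 neighbours in the order of the means differed (limma adjusted p = 0.269 to 0.855). With stimulation the log2 difference was -0.08 at 5% O2 (SE 0.05, 95% interval -0.18 to 0.02, adjusted p = 0.295) and 0.10 at 1% O2 (SE 0.05, -0.00 to 0.20, adjusted p = 0.164). These intervals cover the RNA of both start sites as 1 sum. A change in the short form alone could not be read from gene-level counts. The interaction was 0.18 (SE 0.07, 95% interval 0.03 to 0.33, adjusted p = 0.105).

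At low O2 without stimulation Rcan1 lay near the threshold, with a log2 difference of -0.11 (SE 0.05, limma adjusted p = 0.0542). It was called without 1% CTRL replicate 5 (adjusted p = 0.0343), 1% CTRL replicate 6 (0.0272), 5% CTRL replicate 1 (0.0221) or 1% STIM replicate 2 (0.0462). Between 1% STIM and 5% STIM the log2 difference was 0.07 (adjusted p = 0.269), and when libraries were rescaled to the same total it was 0.14 (adjusted p = 0.0247).

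Among 11045 tested genes whose mean reached 100 in some group, those nearest to Rcan1 over its 3 log2 differences from 5% CTRL were Zfp318, 1700066M21Rik, Gm2004, Zc3h3 and Scyl2, with root mean square differences of 0.01 to 0.02 on the log2 scale. For Nfatc1, a search added after its values were seen, they were Xdh, Eif4ebp1, Gsta1, Plscr1 and Spata2, at 0.04 to 0.07. The likeness is over 4 group means. The SE of each Rcan1 difference was 0.05, larger than the gaps of its nearest genes, so their ranking lies within error.

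Rcan2 (ENSMUSG00000039601, chr17:43801351-44039516, plus strand), a calcineurin inhibitor prominent in muscle and brain, fell at low O2. Its lowest, median and highest normalized counts were 636, 660 and 723 in 5% CTRL and 331, 362 and 398 in 1% CTRL. They were 621, 693 and 755 in 5% STIM and 406, 426 and 466 in 1% STIM. Every library at 1% O2 lay below every library at 5% O2, and every 1% STIM library lay above every 1% CTRL library. Rcan2 was 1.83-fold lower in 1% CTRL than in 5% CTRL (log2 difference -0.87, SE 0.05, limma adjusted p = 1.67e-15) and 1.58-fold lower in 1% STIM than in 5% STIM (-0.66, adjusted p = 2.03e-12). With stimulation it was 1.18-fold higher at 1% O2 (0.24, SE 0.05, adjusted p = 0.0013), and at 5% O2 the log2 difference was 0.03 (95% interval -0.08 to 0.14, adjusted p = 0.729). The difference between the 2 responses was 0.20 (SE 0.08, adjusted p = 0.0861) and was called only when 1% CTRL replicate 1 was left out (adjusted p = 0.0408).

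Rcan3 (ENSMUSG00000059713, chr4:135412308-135433853, minus strand), also an inhibitor of calcineurin, rose at low O2. It ran from 319 to 350 (median 327) in 5% CTRL and from 436 to 504 (median 485) in 1% CTRL. It ran from 317 to 349 (median 333) in 5% STIM and from 441 to 529 (median 454) in 1% STIM. The O2 levels did not overlap, and within each O2 level the stimulated and unstimulated libraries did. It was 1.44-fold higher at rest (log2 difference 0.53, SE 0.05, limma adjusted p = 6.82e-11) and 1.41-fold higher with stimulation (0.49, SE 0.05, adjusted p = 3.97e-10), and stimulation gave 0.02 and -0.02 at 5% and 1% O2 (adjusted p = 0.857 and 0.859).

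Per kb of exon, Rcan1 held 49.9% ± 0.93 of the RNA of the 3 RCAN genes in 5% CTRL, Rcan2 35.3% ± 0.89 and Rcan3 14.9% ± 0.73 (SD, n = 6). In 1% CTRL the shares were 53.1% ± 2.44, 22.2% ± 1.40 and 24.7% ± 1.72, so Rcan3 stood above Rcan2. Which gene led depended on the length used. Per kb of coding transcript Rcan2 led in 5% CTRL with 46.9% and Rcan3 in 1% CTRL with 50.6%.

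**Figure D3:**
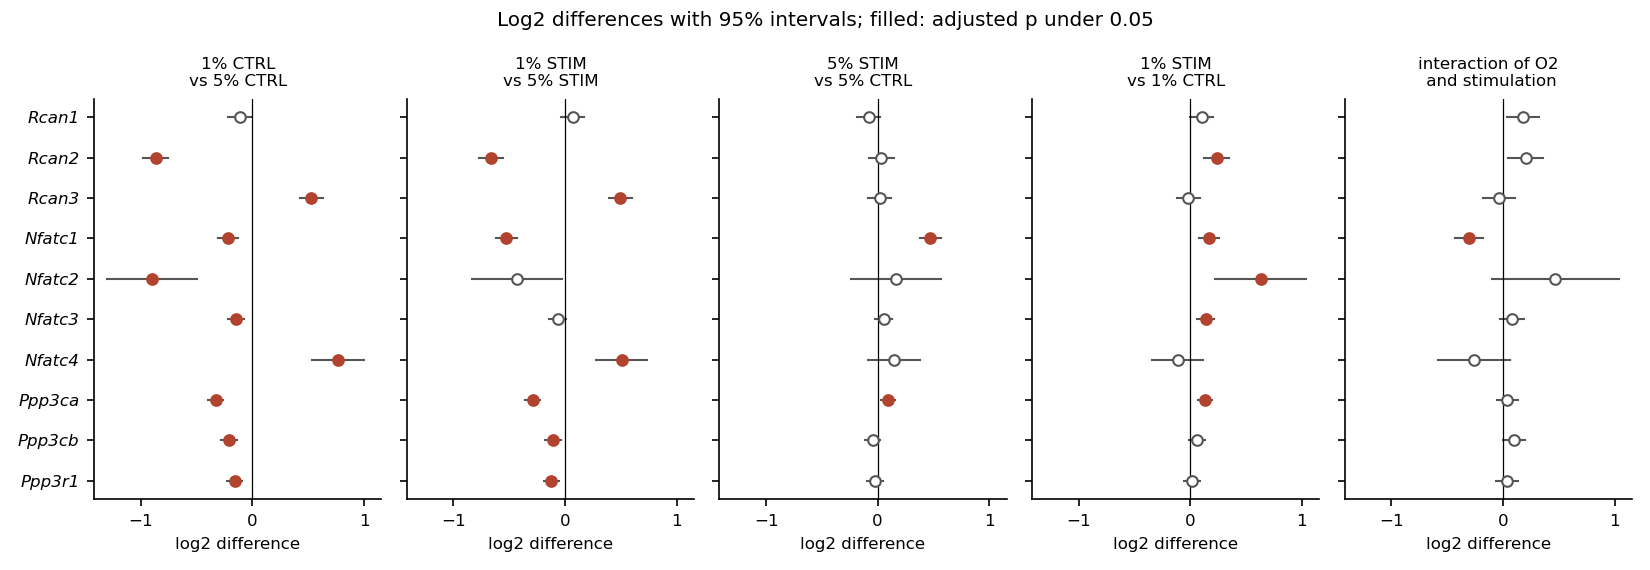
Log2 difference of each gene (horizontal axis, log2 of normalized count + 1) with its 95% interval, in 5 panels for the 2 comparisons of O2 levels, the 2 of stimulation and their interaction; filled circles have a limma adjusted p under 0.05. Rcan2 at -0.87 and Rcan3 at 0.53 point opposite ways at low O2, and in the interaction Nfatc1 at -0.30 is the one filled circle.

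Genes around these 10 were read from 7 lists holding 79 genes. The counts of calls in each list stand beside those over all tested genes. These were 29.4% higher and 30.5% lower at rest, and 29% and 28.4% between the stimulated groups. With stimulation they were 9.44% and 12% at 5% O2, and 11.5% and 10.8% at 1% O2. Calmodulin, which carries calcium to calcineurin, and the remaining family members made up a list of 6, of which 5 were tested. At rest 2 were higher at 1% O2 and 2 lower, with a median log2 difference of 0.03. Calm2 was 1.28-fold lower (limma adjusted p = 5.72e-13), Nfat5, the NFAT that responds to osmotic stress and not to calcineurin, 1.17-fold lower (adjusted p = 0.0018), and Calm3 1.11-fold higher (adjusted p = 0.0038). With stimulation 0 of the 5 were called at 5% O2 by limma, edgeR or DESeq2, and 0 had an unadjusted p under 0.05, while 1 was higher when libraries were rescaled to the same total. At 1% O2, Calm3 was lower (log2 difference -0.15, adjusted p = 0.0143), a call lost when libraries were rescaled to the same total (adjusted p = 0.0504).

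Store-operated calcium entry, through STIM sensors and ORAI channels, feeds the calcineurin pathway. Of 9 genes listed with the TRPC channels, 6 were tested. At rest 2 were higher at 1% O2 and 3 lower, with a median log2 difference of -0.16. The sensors fell, Stim1 by 1.36-fold (limma adjusted p = 4.44e-11) and Stim2 by 1.26-fold (adjusted p = 1.08e-10). The channel genes Orai3 and Trpc1 rose by 1.48-fold and 1.49-fold (adjusted p = 7.05e-07 and 1.01e-05). Between the stimulated groups 1 was higher at 1% O2 and 3 lower, where 29% of all tested genes were higher and 28.4% lower. Orai3 was 1.57-fold higher (adjusted p = 5.67e-08). Stim2 and Stim1 were 1.24-fold and 1.21-fold lower (adjusted p = 5.45e-10 and 1.28e-06). Orai1 was 1.18-fold lower (adjusted p = 0.0055), a call lost when libraries were rescaled to the same total (adjusted p = 0.0536). With stimulation the log2 difference of Orai2 was 0.17 at 5% O2 (adjusted p = 0.0041) and 0.18 at 1% O2 (adjusted p = 0.002), and Trpc1 was 1.24-fold higher at 5% O2 (adjusted p = 0.0259).

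Kinases that return phosphates to NFAT, with the Homer proteins that hold it back, made up a list of 14, of which 13 were matched and 12 tested. At rest 2 were higher at 1% O2 and 5 lower, with a median log2 difference of -0.06, and 5 and 4 when libraries were rescaled to the same total. Dyrk1b and Dyrk1a were 1.52-fold and 1.20-fold lower (limma adjusted p = 9.39e-08 and 1.49e-09). Homer3 was 1.17-fold higher (adjusted p = 0.0004) and the JNK gene Mapk9 1.14-fold higher (adjusted p = 9.80e-05). With stimulation, Dyrk2 was 1.11-fold lower at 5% O2 (adjusted p = 0.0003) and Dyrk1b 1.17-fold higher at 1% O2 (adjusted p = 0.0427). Dyrk2 was the one gene of this list called in the interaction, at 0.13 (adjusted p = 0.0413).

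Proteins that anchor or inhibit calcineurin made up a list of 13, of which 12 were tested. At rest 3 were higher at 1% O2 and 4 lower, with a median log2 difference of 0.01, and 4 and 3 when libraries were rescaled to the same total. Myoz1, a Z-disc protein that tethers calcineurin, was 1.38-fold lower (limma adjusted p = 0.0006), Lmcd1, a cofactor that activates the pathway in heart muscle, 1.24-fold lower (adjusted p = 0.0087) and Cabin1, an inhibitor, 1.15-fold lower (adjusted p = 7.28e-05). Fkbp1a, the receptor through which FK506 blocks calcineurin, was 1.14-fold higher (adjusted p = 9.55e-06). Between the stimulated groups 2 were higher at 1% O2 and 2 lower, where 29% of all tested genes were higher and 28.4% lower. Myoz1 and Cabin1 were 1.32-fold and 1.16-fold lower (adjusted p = 0.0028 and 2.50e-05). Ppia, the receptor of cyclosporin, was 1.13-fold higher (adjusted p = 0.0002) and Fkbp1a 1.11-fold higher (adjusted p = 0.0003). With stimulation at 5% O2, Cib1 and Akap6 were 1.15-fold and 1.11-fold higher (adjusted p = 0.0166 and 0.0208) and Lmcd1 1.28-fold lower (adjusted p = 0.01). At 1% O2 limma, edgeR and DESeq2 called 0 of the 12 with stimulation, and 0 had an unadjusted p under 0.05.

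Other substrates of calcineurin were listed as 9 genes, all tested. At rest 2 were higher at 1% O2 and 4 lower, with a median log2 difference of -0.04, and 2 and 2 when libraries were rescaled to the same total. Mef2a, a muscle transcription factor, was 1.26-fold lower (limma adjusted p = 1.08e-08) and the CREB coactivator Crtc1 1.32-fold lower (adjusted p = 3.30e-08), while Elk1 was 1.22-fold higher (adjusted p = 6.14e-07). Tfeb, a regulator of lysosomal genes, was 1.22-fold lower (adjusted p = 0.0068), a call lost when libraries were rescaled (adjusted p = 0.0541). Between the stimulated groups 2 were higher at 1% O2 and 4 lower, where 29% of all tested genes were higher and 28.4% lower. When libraries were rescaled to the same total, the split was 2 higher and 3 lower. Mef2a, Crtc1 and Tfeb were lower, with log2 differences of -0.40, -0.35 and -0.32 (adjusted p = 3.39e-10, 4.29e-07 and 0.0031). Mef2c was 1.20-fold higher at 1% O2 (adjusted p = 1.67e-08). With stimulation Crtc3 was 1.10-fold higher at 5% O2 (adjusted p = 0.0486) and 1.23-fold higher at 1% O2 (adjusted p = 4.51e-05), and Elk1 was lower at 1% O2 (log2 difference -0.21, adjusted p = 0.0004).

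In the comparisons of O2 and of stimulation, genes known as NFAT targets, mainly from lymphocytes, spread more widely than those of the other lists. Of the 14, 8 were tested, and the other 6, Il2, Il4, Il13, Tnf, Fasl and Cd40lg, did not pass the filter on low counts. Csf2 passed that filter through 5% STIM alone and had to differ there, so counts are given for the other 7. The list was chosen with earlier results of these data known, so its counts are descriptions. With stimulation at 5% O2, 5 of the 7 were higher and 1 lower, with a median log2 difference of 0.53, where 9.44% of all tested genes were higher and 12% lower. At 1% O2, 5 were higher and 1 lower, with a median of 0.50, where 11.5% and 10.8% were. At rest 3 were higher at 1% O2 and 4 lower, where 29.4% and 30.5% were. Several of these genes are also targets of other calcium- and activity-driven factors, and Myf5 stands among the myoblast markers too.

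Nr4a1, an immediate early nuclear receptor gene, ran from 282 to 327 in 5% CTRL and from 679 to 786 in 5% STIM. It ran from 680 to 828 in 1% CTRL and from 1474 to 2052 in 1% STIM. Its unstimulated level at 1% O2 thus overlapped its stimulated level at 5% O2. Nr4a1 was 2.41-fold higher with stimulation at 5% O2 (limma adjusted p = 1.26e-17), 2.29-fold higher at 1% O2 (adjusted p = 4.97e-17) and 2.44-fold higher in 1% CTRL than in 5% CTRL (adjusted p = 7.41e-19). Nr4a3 moved the same ways, by 1.45-fold and 1.46-fold with stimulation at 5% and 1% O2 and by 1.84-fold at low O2, all called. Ptgs2, the inducible cyclooxygenase, was 1.47-fold and 1.42-fold higher with stimulation at 5% and 1% O2 (adjusted p = 1.71e-06 and 5.25e-06) and 1.83-fold lower in 1% CTRL than in 5% CTRL (adjusted p = 1.23e-10). Myf5 was higher with stimulation at 5% O2 (log2 difference 0.38, adjusted p = 0.0002) and at 1% O2 (0.41, adjusted p = 7.92e-05), and higher in 1% CTRL than in 5% CTRL (0.63, adjusted p = 5.24e-09).

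The early growth response genes Egr2 and Egr3 were lower at low O2, and neither was called as higher with stimulation. Egr3 ran from 1990 to 2221 in 5% CTRL and from 1810 to 2013 in 5% STIM. It ran from 1118 to 1266 in 1% CTRL and from 516 to 682 in 1% STIM. The 1% O2 groups lay apart from each other and below all libraries at 5% O2. With stimulation Egr3 was 2.01-fold lower at 1% O2 (log2 difference -1.01, SE 0.05, limma adjusted p = 1.25e-17) and at 5% O2 the log2 difference was -0.18 (adjusted p = 0.0053). The responses differed by -0.82 (SE 0.07, adjusted p = 1.19e-10). Egr2 was 3.28-fold lower in 1% CTRL than in 5% CTRL (adjusted p = 4.77e-21), with log2 differences for stimulation of 0.13 and -0.08 that were not called (adjusted p = 0.185 and 0.441).

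Some cytokine genes of this list lay below the level used for naming genes and are given because their pattern stood out after their values were seen. Csf2 was at 0 to 2.07 normalized counts in 5% CTRL and at 13.3 to 24.2 in 5% STIM. In the 12 libraries at 1% O2 it was at 0 or at no more than 0.974. No test is given for it, since 3 of the groups lie at or near 0. Il6 ran from 15.3 to 22.0 in 5% CTRL and from 65.9 to 92.9 in 5% STIM. It ran from 1.92 to 6.71 in 1% CTRL and from 7.80 to 21.2 in 1% STIM, and its interaction was -0.42 (adjusted p = 0.421).

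Slow fibre genes, the programme that calcineurin favours in muscle, were listed as 14 genes, all tested. With stimulation at 5% O2 none was higher and 2 were lower, with a median log2 difference of -0.01, and 12% of all tested genes were lower in that comparison. At 1% O2, 2 were higher and 1 lower (median -0.05). Myh7b, a slow-type myosin gene, was 1.29-fold lower with stimulation at 5% O2 (limma adjusted p = 0.0091) and 1.27-fold lower at 1% O2 (adjusted p = 0.0122), and Myh2 1.20-fold lower at 5% O2 (adjusted p = 0.006). Myh2 encodes the myosin of fast oxidative fibres and stands on the list as an oxidative and not as a slow gene. Atp2a2, the slow calcium pump, was 1.08-fold higher at 1% O2 (adjusted p = 0.0008) and was the one gene of the list called in the interaction (0.12, adjusted p = 0.0206). The other gene higher with stimulation at 1% O2 was Ppargc1a, a coactivator of mitochondrial genes, which lay below the level used for naming and was added after its values were seen. It ran from 12.6 to 31.4 in 5% CTRL, from 29.1 to 43.3 in 1% CTRL, from 20.3 to 32.7 in 5% STIM and from 46.2 to 89.5 in 1% STIM, where every library was above those of the other groups. Its log2 difference with stimulation was 0.79 at 1% O2 (SE 0.19, limma adjusted p = 0.0025) and 0.19 at 5% O2 (adjusted p = 0.556), with an interaction of 0.61 (SE 0.28, adjusted p = 0.165). At low O2 it was 0.67 at rest (adjusted p = 0.0037) and 1.27 between the stimulated groups (adjusted p = 1.03e-06). At rest 2 were higher at 1% O2 and 4 lower, and 4 and 1 when libraries were rescaled to the same total. Myh7b was 1.33-fold higher (adjusted p = 0.001) and Mb, myoglobin, 1.18-fold lower (adjusted p = 0.001). Myh7 and Myl6b were lower by 0.25 and 0.18 on the log2 scale, calls lost when libraries were rescaled (adjusted p = 0.0563 and 0.0517).

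**Figure D4:**
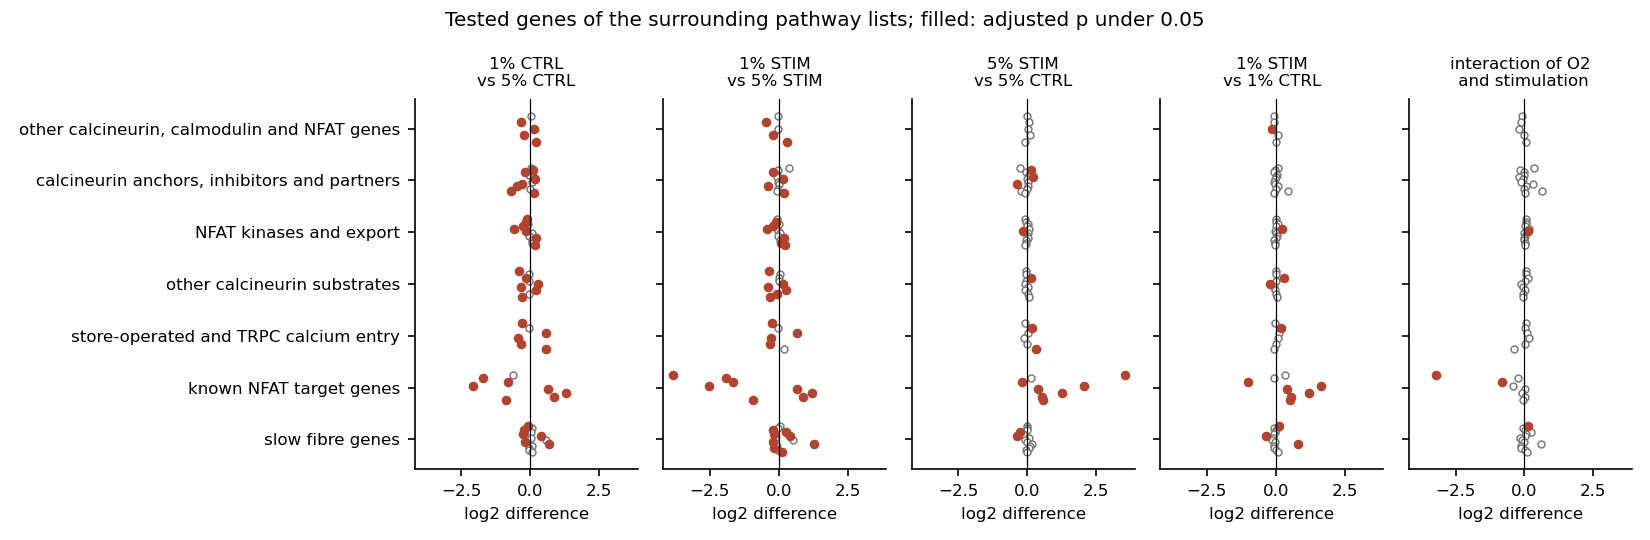
Log2 differences (horizontal axis) of the tested genes of the 7 lists (rows) in the 2 comparisons of O2 levels, the 2 of stimulation and their interaction; each point is a gene and filled points have a limma adjusted p under 0.05. In the comparisons of O2 and of stimulation the known NFAT targets spread widest, with or without Csf2. The points of Csf2, which passed the filter on low counts through 5% STIM alone, are drawn but are not read as tests. The kinases, anchors and substrates of calcineurin lie between -0.36 and 0.43 with stimulation.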

How the data were processed

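RNA of 24 C2C12 libraries was sequenced single-end from stranded mRNA. Per the submitters' processing notes, reads were checked with FastQC 0.11.7, aligned to GRCm38 with STAR 2.5.4b and counted with RSEM 1.3.0 at default settings, which do not use strand. The deposited signal is the authors' count of a gene divided by the DESeq2 size factor of its library, and whole reads could be recovered from it for 100% of values (tolerance 0.02). A second deposited table, of the authors' own fold changes and p-values, was not used. Genes with at least 10 normalized counts in at least 6 libraries were kept (14541), and log2(value + 1) was fitted over 4 groups with limma 3.58.1 in R 4.3.3 (trend and robust variance), with Benjamini-Hochberg adjustment in each of 5 comparisons. Alternatives were edgeR 4.0.16, DESeq2 1.42.0 and limma voom on whole reads, pseudocount 10, no filter, rescaling to the same total, the compared groups alone, a replicate block, an adjusted p under 0.01 and leaving out each library. The limma fit was also run on simulated reads, with changes placed in 5% STIM alone and in genes above the level of Nfatc2. That run covered no comparison of O2 levels and no interaction. The 10 genes and all lists were chosen with earlier results of these data known. All 10 genes are described. Up to 4 called genes per other list and comparison with a mean of at least 100 are named, by size of change. Between the stimulated groups this was done for some lists only. Csf2, Il6 and Ppargc1a are additions, marked where they stand. Some values of Myf5, Egr2 and Egr3 outside that choice are also given, to complete those genes. Totals of 26541858 to 28173745 reads assigned to genes per library limit precision mainly for Nfatc2 and Nfatc4. Start-site windows are from RefSeq.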

Additional observations from a re-analysis of the deposited data

Results flagged for a closer look

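In 4 of 40 groups of 6 libraries checked for the 10 genes, 1 library stood apart from the other 5 by Dixon's 95% limit for 6 samples, where chance sets apart about 1 in 20 groups. Nfatc1 was at 752 normalized counts in 5% CTRL replicate 1, with the next library at 670.1. Nfatc4 was at 87.8 in 5% STIM replicate 3, with the next at 121. Ppp3cb was at 4106 in 1% CTRL replicate 1, with the next at 3718, and this library, which also stood slightly apart over all tested genes (median correlation with its group 0.985 against 0.991 for the other 5), is the one whose removal adds the calls for Ppp3cb and Rcan2. Ppp3r1 was at 6111 in 5% CTRL replicate 5, with the next at 5900. The response of Nfatc1 to stimulation differed between the O2 levels by -0.30 on the log2 scale by the interaction test (limma adjusted p = 0.0012).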

How the results depend on the processing

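Of 390 results for single genes under 8 other settings or fits, beside leaving out libraries, 380 kept their direction and side of the threshold, 6 were called newly, 4 lost their call and none reversed. Rcan1 between 1% CTRL and 5% CTRL was -0.11 with a replicate block (adjusted p = 0.0203), and leaving out 1 library gave -0.14 to -0.080. Rescaled to the same total, Rcan1 between 1% STIM and 5% STIM was 0.14. With the replicate block the interaction of Rcan1 was 0.18 (limma adjusted p = 0.0436), which made 2 genes called in the interaction instead of 1, and 1 to 3 when 1 library was left out. The replicate block called 3 results newly, these of Rcan1 among them. Between 5% STIM and 5% CTRL the genes called numbered 1 with no filter, 1 at an adjusted p under 0.01 and 1 to 2 when 1 library was left out. The replicate numbers do not pair the samples: 2 of 36 same-number pairs had a correlation of deviations over 0.1, and 5 of 24 libraries were closest to their own number. Replicate 1 was the lowest for Rcan1 in all 4 groups. The causes were not tested. Levels per kb, and with them the order of the RCAN genes, depend on the length used. Depth limits Nfatc2 most.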
